A study of Mus musculus with 16 samples.

Results

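Dense clusters of open chromatin were 50 kb stretches of the mouse genome that held 12 or more separate ATAC-seq regions in developing T cells of the thymus. ATAC-seq cuts DNA with a transposase where it is not covered by nucleosomes, and a peak marks a place with more cuts than its surroundings. Peaks of the 4 stages that shared 1 bp or more were merged into 185978 open regions, each region was placed by its midpoint in consecutive 50 kb bins from the start of chromosomes 1 to 19, and bins with 12 or more regions were kept. The members were therefore selected on the number of peaks in these same lists, and their density is a description and not a finding. They were 73957 regions (39.8% of all) in 4836 bins, out of 28379 bins with at least 1 region and 49264 bins in all.

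The cells came from wild-type C57BL/6J mice aged 9 weeks, 4 mice in all, and every group shared that strain, genotype and age. From each mouse lineage-negative cells were sorted by flow cytometry into CD4-CD8-CD3- double negative (DN), CD4+CD8+ double positive (DP), CD4+CD8-CD3+ single positive (SP4) and CD4-CD8+CD3+ single positive (SP8) thymocytes, which gave 16 libraries. The authors pooled the 4 mice of a stage before calling peaks, so each stage had 1 list with no replicates: 150139 peaks for DN, 107110 for DP, 115074 for SP4 and 104411 for SP8. No difference below was tested, and 95% Wilson intervals cover counting error only. Of 14 thymocyte marker genes 13 had a peak at the promoter in DN, 14 in DP, 13 in SP4 and 13 in SP8. The absent ones were Ptprc, the CD45 phosphatase, in DN and Dntt, the terminal transferase of receptor rearrangement, in SP4 and SP8. Among the other markers, B cell genes had 3, 2, 3 and 3 of 10 promoters open in DN, DP, SP4 and SP8. Those of Ebf1 and Vpreb1 had a peak in every list, Cd22 in SP4 and SP8 and Igll1 in DN. The promoters of Cd79a and Pax5 had no peak in any list. Myeloid genes had 3, 2, 2 and 2 of 10, erythroid genes 1 of 9 and natural killer genes 5 of 10 in every list. The promoter heights given below rest on a different count of peaks at gene starts. By that count Cd14 and Cd79b also had a peak in every list, and Ank1 in DN and DP. Open promoters do not show that these genes were transcribed. The share of all promoters with a peak is not given here, so these counts do not measure the purity of the sort.

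T cell progenitors enter the DN stage, commit to the T lineage under Notch signals, rearrange the T cell receptor beta chain, and become DP cells that rearrange the alpha chain. Selection on receptor binding then leads to CD4 helper or CD8 cytotoxic SP cells. Genes that fix cell identity are often surrounded by many enhancers, short stretches of DNA where transcription factors bind and raise the activity of a promoter. Such enhancer groups are known around genes of T lineage factors such as TCF-1, the product of Tcf7, and Bcl11b.

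The sequences below show what the highest non-coding peak of a dense bin looks like in the 7 genes of the 8 densest bins. Each covers the summit of the highest peak of the bin that lay outside promoters and exons, with 100 bp on either side, on the plus strand of mm10 (GRCm38). All lay in introns of the named gene, except the one at Tcf7, which was 16859 bp upstream of the gene start. All 8 regions were called at the 4 stages. Capitals mark matches on either strand to short motifs of T cell factors, namely RUNX (TGTGGT), ETS (CAGGAA), TCF7/LEF1 (CTTTGA), the E-box of the E proteins (CAGCTG), IKZF (TGGGAA), the letters AGATAA of zinc finger factors of the GATA family, AP-1 (TGACTCA), KLF/SP (GGGCGG) and CTCF, the last searched as a longer pattern and given by name. The motifs may overlap each other.
Zmiz1 intron, chr14:25493553-25493753: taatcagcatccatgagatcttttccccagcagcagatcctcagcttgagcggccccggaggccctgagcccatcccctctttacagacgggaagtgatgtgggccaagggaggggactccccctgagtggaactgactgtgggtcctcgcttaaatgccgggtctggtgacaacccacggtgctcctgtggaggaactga
Cyth1 intron, chr11:118203454-118203654: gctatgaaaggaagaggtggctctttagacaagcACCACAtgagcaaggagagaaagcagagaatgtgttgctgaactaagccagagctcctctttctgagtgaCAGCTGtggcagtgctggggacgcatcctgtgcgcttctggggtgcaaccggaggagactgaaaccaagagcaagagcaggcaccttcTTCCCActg
Bcl11b intron, first bin, chr12:107928029-107928229: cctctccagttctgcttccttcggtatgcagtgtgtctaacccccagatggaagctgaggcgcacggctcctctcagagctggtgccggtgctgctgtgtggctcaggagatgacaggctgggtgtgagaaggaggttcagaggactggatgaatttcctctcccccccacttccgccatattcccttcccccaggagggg
Tcf7 upstream, chr11:52299773-52299973: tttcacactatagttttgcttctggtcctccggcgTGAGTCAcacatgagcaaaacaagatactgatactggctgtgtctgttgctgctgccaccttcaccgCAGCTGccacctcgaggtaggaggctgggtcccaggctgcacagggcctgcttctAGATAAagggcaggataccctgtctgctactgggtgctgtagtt
Bcl11b intron, second bin, chr12:107964794-107964994: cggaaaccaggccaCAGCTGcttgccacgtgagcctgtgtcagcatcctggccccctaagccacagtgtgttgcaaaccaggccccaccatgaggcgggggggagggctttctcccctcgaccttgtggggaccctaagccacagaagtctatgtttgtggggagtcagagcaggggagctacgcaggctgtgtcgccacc
Satb1 intron, chr17:51762599-51762799: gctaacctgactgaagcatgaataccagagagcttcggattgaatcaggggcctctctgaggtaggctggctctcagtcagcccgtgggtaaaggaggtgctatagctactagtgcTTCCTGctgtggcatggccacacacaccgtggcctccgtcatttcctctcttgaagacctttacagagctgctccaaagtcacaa
Med13l intron, chr5:118601579-118601779: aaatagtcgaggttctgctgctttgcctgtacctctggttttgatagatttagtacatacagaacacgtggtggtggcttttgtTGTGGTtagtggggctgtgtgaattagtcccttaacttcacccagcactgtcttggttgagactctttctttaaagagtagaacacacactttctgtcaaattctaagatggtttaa
Tmem131 intron, chr1:36920403-36920603: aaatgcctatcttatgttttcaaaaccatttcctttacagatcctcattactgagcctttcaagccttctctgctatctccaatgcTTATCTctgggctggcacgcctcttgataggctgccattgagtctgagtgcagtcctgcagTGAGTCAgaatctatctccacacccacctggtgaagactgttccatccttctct

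In windows of this length, 25.3% of all 185978 regions held the RUNX letters, 35.3% ETS, 16.0% TCF7/LEF1, 18.3% the E-box, 8.11% GATA, 15.3% IKZF, 5.26% AP-1, 3.33% CTCF and 10.5% KLF/SP. The Zmiz1 window and that of the first Bcl11b bin held no match. The Cyth1 window held RUNX, E-box and IKZF letters, and the Tcf7 window held AP-1, E-box and GATA letters. Heights are given as fold enrichment over the local background of the same list. The Tcf7 element was high in every list, with 15.03-fold in DN, 16.4-fold in DP, 22.6-fold in SP4 and 24.4-fold in SP8. The Satb1 element reached 18.97-fold in DN, 10.7-fold in DP, 16.2-fold in SP4 and 23.6-fold in SP8, and was lowest in DP. The element of the second Bcl11b bin had 8.71-fold in DN, 12.1-fold in DP, 2.44-fold in SP4 and 7.49-fold in SP8, and was lowest in SP4. The Tmem131 element was higher in both SP lists (14.3-fold in SP4 and 10.6-fold in SP8) than in DN (5.50-fold) and DP (4.29-fold).

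For contrast, a region called at 1 stage is shown from the bin with the largest excess of that stage's peaks, chosen after the values were seen as the highest such peak outside promoters, exons and windows with 50% or more bases masked as repeats. Capitals mark the same motifs.
Hand2, DN only, chr8:57328618-57328818: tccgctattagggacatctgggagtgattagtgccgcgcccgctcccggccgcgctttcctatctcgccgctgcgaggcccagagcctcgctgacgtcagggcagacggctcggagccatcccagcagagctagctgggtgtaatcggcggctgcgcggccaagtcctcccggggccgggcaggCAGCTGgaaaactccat
Ssbp2 intron, DP only, chr13:91648342-91648542: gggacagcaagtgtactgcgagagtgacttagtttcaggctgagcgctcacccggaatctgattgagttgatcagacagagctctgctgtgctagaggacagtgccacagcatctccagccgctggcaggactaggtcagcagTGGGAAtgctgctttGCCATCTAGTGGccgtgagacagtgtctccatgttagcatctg
Nudcd3 intron, SP4 only, chr11:6168750-6168950: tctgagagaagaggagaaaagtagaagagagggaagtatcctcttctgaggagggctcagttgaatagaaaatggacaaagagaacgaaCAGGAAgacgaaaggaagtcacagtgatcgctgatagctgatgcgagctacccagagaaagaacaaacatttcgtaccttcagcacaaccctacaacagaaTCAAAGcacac
Peli1 intron, SP8 only, chr11:21108212-21108412: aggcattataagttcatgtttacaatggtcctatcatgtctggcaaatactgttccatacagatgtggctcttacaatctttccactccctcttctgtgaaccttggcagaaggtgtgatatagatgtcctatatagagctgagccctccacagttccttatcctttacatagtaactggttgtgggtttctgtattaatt

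The DN-only window near Hand2, 7735 bp from the gene start, held 20 CpG pairs and was 67.2% G or C, with a height of 6.61-fold. The others held 5 CpG pairs at Ssbp2, 5 at Nudcd3 and 0 at Peli1, and reached 4.17-fold, 6.54-fold and 2.92-fold. The DP-only window at Ssbp2 contained a CTCF match next to an IKZF match.

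The number of bins declined steadily across the threshold, with no gap there. There were 1099 bins with 11 regions just below it and 966 with 12 just inside. The median dense bin held 14 regions and the fullest 36, against a median of 4 in the other bins with a region. Of the dense bins 517 held 20 or more, 74 held 25 or more and 10 held 30 or more. Together they spanned 241.8 Mb, or 9.82% of all bins. Open regions covered 9.86% of the bases in dense bins, from 3.70% to 22.6% of a bin, and 1.64% of the bases in all other bins. Neighbouring regions lay a median of 1479 bp apart (quartiles 356 and 4015 bp) in dense bins and 3346 bp (668 and 8046 bp) in the others. The share of a chromosome's bins that were dense ranged from 5.52% on chromosome 14 to 17.9% on chromosome 11, with 15.3% on chromosome 17 second.

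**Figure D1:**
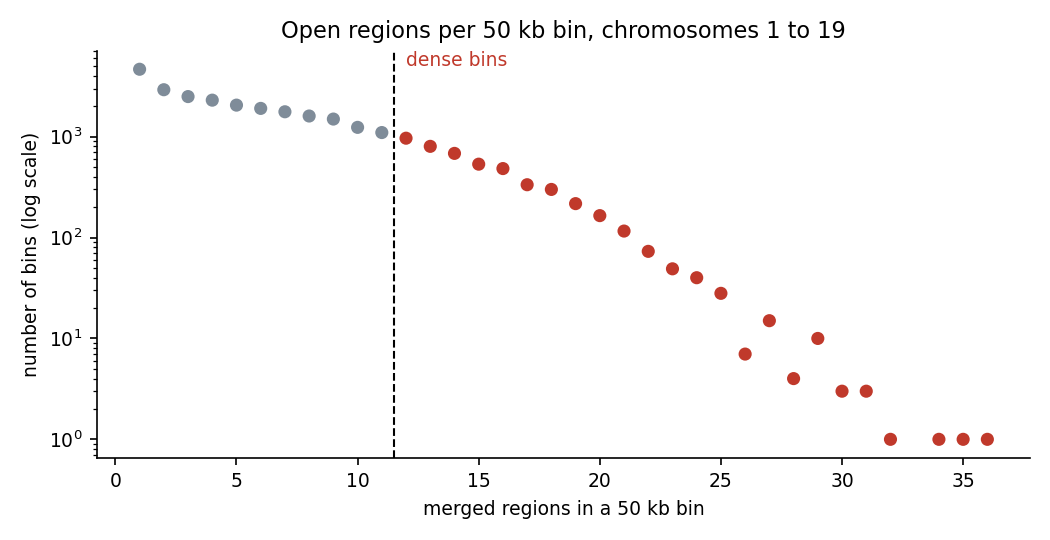
Number of 50 kb bins (y, log scale) by the number of merged open regions they hold (x), for bins with at least 1 region on chromosomes 1 to 19. Red points are the 4836 dense bins, the dashed line marks the threshold of 12, and the counts fall without a step from 1099 bins at 11 regions to 966 at 12.

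Regions in dense bins were more often shared by all stages than regions elsewhere. Calls at all 4 stages made up 37.3% of dense-bin regions (95% interval 36.9% to 37.6%) and 32.0% of the others (31.7% to 32.2%), with 34.1% over all regions. The dense share was higher on 19 of 19 chromosomes, which share their 4 lists and are not replicates. Regions called at 1 stage made up 33.8% in dense bins, 41.6% in the others and 38.5% of all regions, lower in dense bins on every chromosome. The larger part of this difference was in DN. DN-only regions were 16.7% of dense-bin regions and 25.01% of the others (21.7% of all regions). DP-only regions were 5.59% against 4.89% (5.17% of all regions) and SP8-only regions 4.77% against 3.84% (4.21% of all regions), both slightly higher in dense bins. SP4-only regions were 6.66% against 7.87% (7.39% of all regions).

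**Figure D2:**
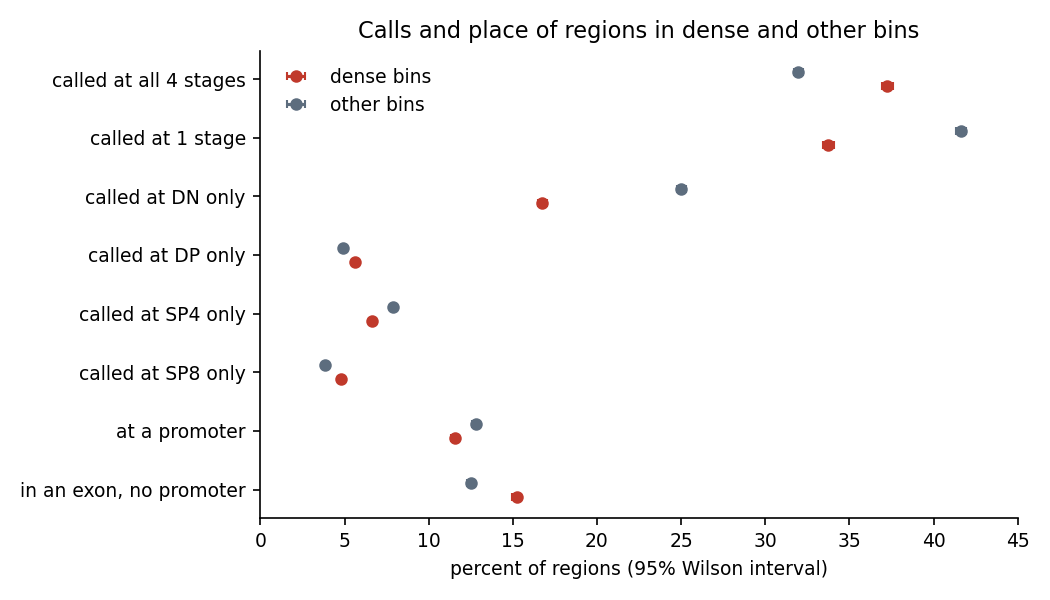
Percent of regions (x) in dense bins (red, 73957 regions) and in other bins (grey, 112021 regions) for each class of call and place (y), with 95% Wilson intervals that are mostly narrower than the points. Regions called at all 4 stages were 37.3% in dense and 32.0% in other bins, and DN-only regions 16.7% and 25.01%.

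By stage, 74.2% of dense-bin regions were called in DN and 76.8% of the others (75.7% of all regions). The 3 later stages went the other way, on 19 of 19 chromosomes each. DP had 59.6% against 50.2% (53.9% of all regions), SP4 60.7% against 56.7% (58.3% of all regions) and SP8 58.2% against 49.5% (53.0% of all regions). In peaks, dense bins held 58680 of the DN list (39.1%), 47014 of the DP list (43.9%), 47660 of the SP4 list (41.4%) and 45487 of the SP8 list (43.6%). The DN list was the longest and its share in dense bins the lowest. A dense bin held a median of 12 DN, 9 DP, 10 SP4 and 9 SP8 peaks. In 4821 of the 4836 bins every stage had peaks, and 4802 had at least 1 region called at all 4. With each list cut to the 104411 peaks of the shortest one, by q-value, DN-only regions were 6.62% in dense bins and 13.1% elsewhere, so the level was lower and the direction the same.

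Sharing differed by place. At promoters, taken as 200 bp upstream of a transcript start, 69.2% of dense-bin regions and 69.5% of the others were called at all 4 stages. Away from promoters and exons the figures were 32.3% in dense bins and 25.8% elsewhere, higher on 19 of 19 chromosomes. In exons they were 36.9% and 30.4%, higher on 18. Regions called at 1 stage also lay closer to a shared one in dense bins, where all spacings are shorter by the way bins were chosen. Of 24964 such regions 28.4% were within 1 kb of a region called at all 4 stages, with a median distance of 2947 bp, against 13.8% and 10505 bp in the other bins. Within dense bins the share was lowest for DN-only regions (23.7%) and highest for SP8-only regions (36.5%). Stage-only regions of different stages lay together in most dense bins. In 659 bins all 4 stages had a region of their own, in 1818 bins 3 stages, in 1743 bins 2, in 594 bins 1 and in 22 bins none. The 4836 dense bins held 24964 regions of 1 stage, and the mixing that these numbers alone would give was not computed.

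Peaks in dense bins stood lower within their own lists than peaks in other bins. The median region in a dense bin had its highest peak at percentile 45.8 of fold enrichment in its list, against 52.7 in the other bins. Regions called at all 4 stages stood at 76.4 and 83.9, and regions of 1 stage at 17.8 and 29.3, so the gap held within both classes. Widths were alike, with medians of 237 and 228 bp. Peaks under the 10th percentile of their list made up 4.65% of peaks in bins with 1 to 5 regions, 7.79% with 6 to 11, 11.4% with 12 to 14, 14.9% with 15 to 19, 19.8% with 20 to 24 and 28.8% with 25 to 36. Each list showed the same order, from 4.104% to 29.1% in DN and from 4.44% to 27.5% in SP8 between the lowest and the highest class. The classes were formed on counts that include the low peaks, so part of this order is set by how bins were grouped. The caller's local background comes from reads around the peak, so a fold measured inside widely open DNA is not on the same footing as one measured in closed DNA. The part this had in the lower folds was not tested.

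Leaving out peaks under the 10th percentile left 3534 dense bins, of which 3533 were among the 4836. Of the 20 densest bins 18 still held 12 or more regions. The first Bcl11b bin fell from 34 to 11 regions and the Satb1 bin from 31 to 9. Tcf7 fell from 32 to 14 and Zmiz1 from 36 to 21. The Cyth1, Med13l and Tmem131 bins, with 27 regions each, then led the list. The first Bcl11b bin and the Satb1 bin were thus dense only with low peaks counted.

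The fullest bins lay at Zmiz1 and Cyth1. Zmiz1, whose protein is a cofactor of Notch1, had the fullest bin, chr14:25450001-25500000, with 36 regions from 28 DN, 29 DP, 26 SP4 and 23 SP8 peaks. In it 17 regions were called at all 4 stages and 10 at 1. Cyth1, an exchange factor for ARF GTPases, followed with 35 regions (31 DN, 27 DP, 22 SP4 and 28 SP8 peaks) in chr11:118200001-118250000, of which 13 were shared by all stages and 7 belonged to 1. Counts were nearly equal between stages in the Zmiz1 bin, while those of the Cyth1 bin ranged from 22 in SP4 to 31 in DN.

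Bcl11b, a zinc finger factor needed for T lineage commitment, had a pair of neighbouring bins. The first, chr12:107900001-107950000, held 34 regions (23 DN, 22 DP, 20 SP4 and 26 SP8 peaks). Median percentiles there were 0.928 in DN, 1.65 in DP, 2.17 in SP4 and 4.33 in SP8. The second, chr12:107950001-108000000, held 31 regions with 18 DN, 18 DP, 24 SP4 and 28 SP8 peaks, and was among the 3 bins with the largest SP8 excess. Its peaks were mostly low, with median percentiles of 1.90 in DN, 2.11 in DP, 6.36 in SP4 and 5.66 in SP8. Tcf7 had 1 bin, chr11:52250001-52300000, with 32 regions and 19 DN, 27 DP, 22 SP4 and 20 SP8 peaks, highest in DP. None of its regions was DN-only, while 4 were DP-only, 4 SP4-only and 3 SP8-only. Median percentiles in the Tcf7 bin were 28.5 in DN, 6.28 in DP, 6.22 in SP4 and 12.6 in SP8. Lef1, the relative of TCF-1, had 30 regions (15 DN, 13 DP, 22 SP4 and 21 SP8 peaks) in chr3:131150001-131200000 and 29 (14, 16, 23 and 24 in the same order) in the bin before it. Both Lef1 bins had more SP4 and SP8 peaks than DN or DP peaks, but these stood lower in their lists. Median percentiles in the bin of 30 regions were 21.7 in DN, 48.2 in DP, 9.03 in SP4 and 17.4 in SP8. In the bin of 29 regions they were 16.9, 20.7, 9.07 and 12.7. Satb1, a chromatin organiser of thymocytes, had 31 regions with 10 DN, 21 DP, 23 SP4 and 20 SP8 peaks, and DN was far below the later stages. The median percentile in this bin was 20.2 in DN, 4.73 in DP, 0.894 in SP4 and 5.86 in SP8. Many of the later-stage peaks were therefore low.

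Fli1, an ETS family factor, had 30 regions (24 DN, 21 DP, 17 SP4 and 22 SP8 peaks). Notch1, the receptor that directs progenitors to the T lineage, had 29 regions, with 25 DN, 19 DP, 17 SP4 and 11 SP8 peaks. In its bin 7 regions were DN-only and 0 SP8-only. Rhoh, a GTPase needed for T cell receptor signals, had 29 regions with 19 DN, 21 DP, 24 SP4 and 23 SP8 peaks, 14 of them shared by all stages. Hdac4, a histone deacetylase, had 29 regions of which 15 belonged to 1 stage, 8 of these to DN. Med13l, of the Mediator kinase module, had 31 regions with 23, 22, 21 and 20 peaks in DN, DP, SP4 and SP8, the most even of the 20. Tmem131 (30 regions), Prex1, Trp53i11, Spata13 and Gse1 (29 each) completed the named ones with 13, 10, 12, 9 and 12 regions shared by all stages. The bin chr8:122700001-122750000 (29 regions) lay in Gm20388, a gene model of 4435 kb that runs across many genes. The Abtb2 bin also held 29 regions, and 28 of them counted as exonic, in a bin where the annotation holds an exon of 47994 bp.

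**Figure D3:**
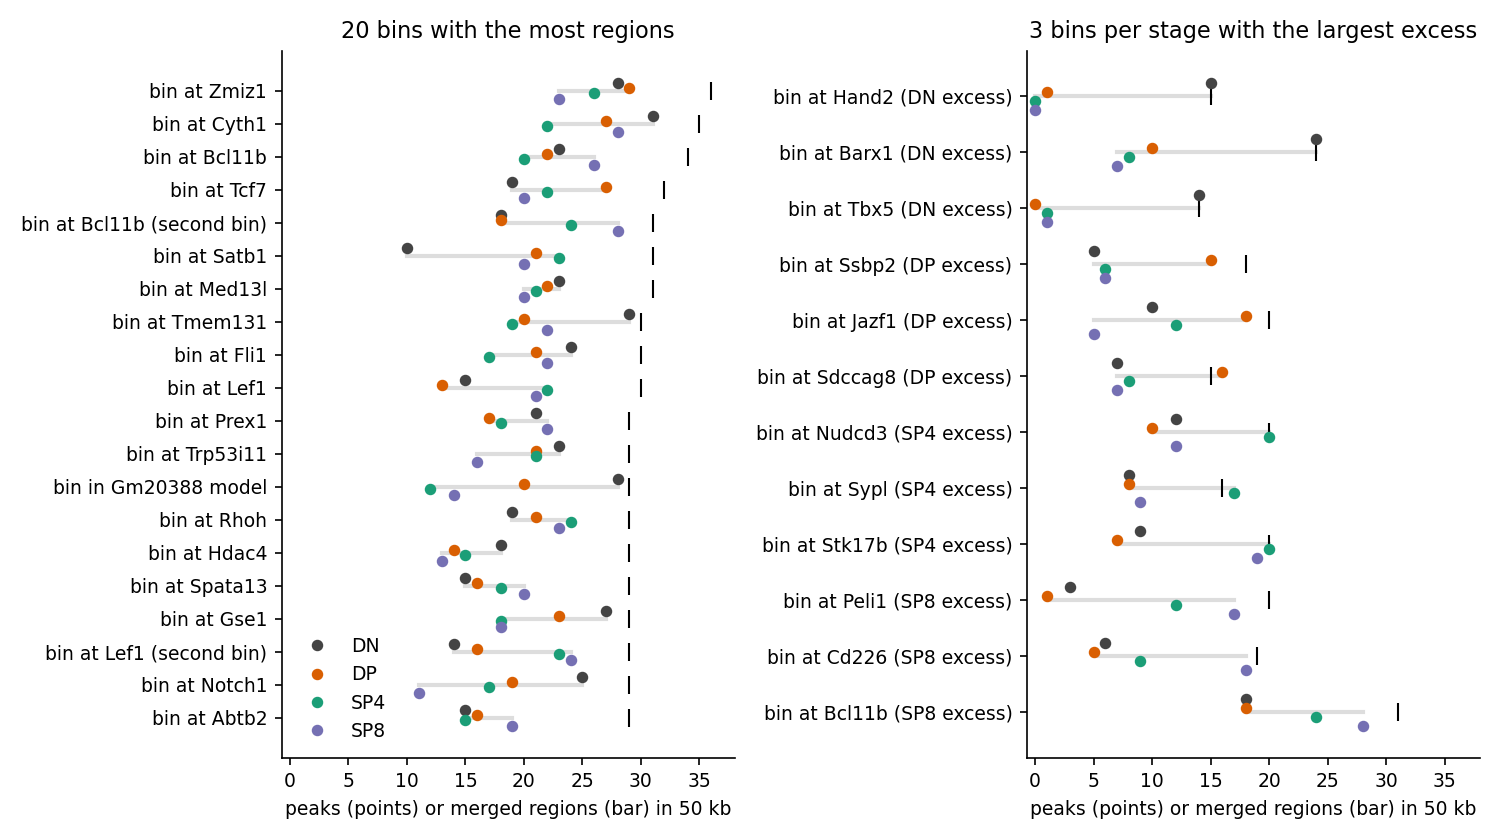
Number of peaks of each stage (coloured points) and of merged regions (black bars) in a 50 kb bin (x), for the 20 bins with the most regions (left) and the 3 bins per stage with the largest excess over that stage's share of dense-bin peaks (right). Zmiz1 and Med13l have nearly equal counts, Satb1 has 10 DN peaks against 20 to 23 at the later stages, and the Hand2 bin has 15 DN peaks and at most 1 at any other stage. Median percentiles in the Satb1 bin are 20.2 in DN and 0.894 to 5.86 at the later stages.

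Low peaks in the gene body were compared with those around it at 8 loci, and at each of the 8 they made up a larger share inside. All but Ets1 lay at the 20 densest bins, which were ranked on counts that include low peaks. The larger share inside is thus partly set by the choice of loci. Of the 166 peaks of the 4 lists in the body of Bcl11b, 108 (65.1%) were under the 10th percentile of their list, against 17.4% of 132 peaks in the rest of the 150 kb on either side of the gene start. Satb1 had 65.8% of 158 peaks in the body and 11.3% of 124 outside, and Tcf7 60.8% of 51 and 21.5% of 237. Lef1 had 29.6% and 20.3%, Zmiz1 35.5% and 18.4%, Cyth1 31.9% and 9.21%, Notch1 30.4% and 19.9%, and Ets1 30.7% and 26.5%. Bcl11b, Satb1 and Tcf7 thus stood apart from the other loci compared by the share of low peaks in the gene body. The Bcl11b promoter itself was at percentile 76.8 in DN, 72.2 in DP, 79.6 in SP4 and 78.8 in SP8. The highest peak at a Lef1 promoter was at percentile 1.39, 3.76, 0.219 and 0.0508 in the same order, although the gene lay in 3 dense bins.

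**Figure D4:**
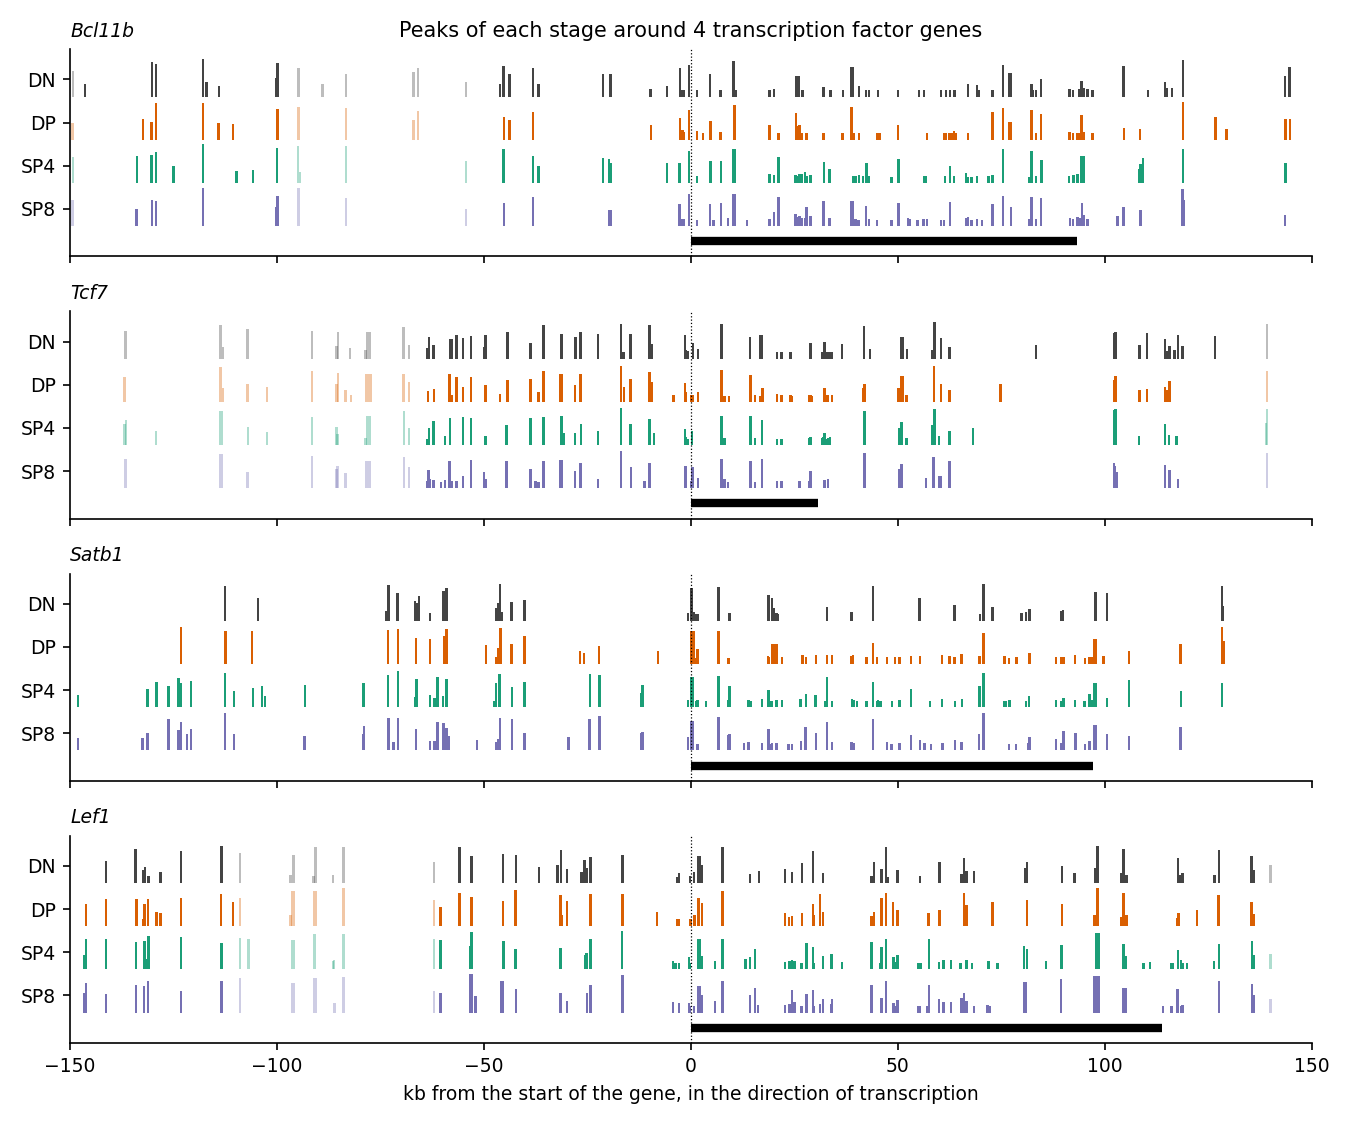
Peaks of the 4 lists (rows) within 150 kb of the start of Bcl11b, Tcf7, Satb1 and Lef1, by distance along the direction of transcription (x, kb), with bar height giving the percentile of fold enrichment in the peak's own list and the black line the gene body. Full colour marks regions in dense bins and pale colour other regions. Low bars fill the bodies of Bcl11b and Satb1, where 65.1% and 65.8% of peaks are under the 10th percentile.

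Dense bins adjoined each other. Of the 4836 bins 3215 (66.5%) had a dense neighbour, and 2203 (45.6%) stood in the 520 runs of 3 or more. The longest run covered 17 bins, chr11:119500001-120350000, with 242 regions at 12 coding genes that included Rptor, of the mTOR complex, and Actg1, a cytoplasmic actin. It held 188 DN, 162 DP, 136 SP4 and 120 SP8 peaks, most in DN and fewest in SP8. The next, chr17:83650001-84400000, held 263 regions in 15 bins with only 4 coding genes, Mta3, Haao, Zfp36l2 and Thada. Zfp36l2 encodes an RNA-binding protein that promotes messenger decay. The run held 206 DN, 171 DP, 163 SP4 and 162 SP8 peaks. A run of 14 bins on chromosome 8 held Gse1 and Irf8, a factor of myeloid and B cells, with 248 regions. A run of 12 bins, chr16:92550001-93150000, overlapped 1 coding gene, Runx1, a factor needed throughout T cell development. It had 196 regions from 150 DN, 119 DP, 133 SP4 and 105 SP8 peaks, and 182 of them were away from promoters and exons. Foxp1, a factor of T cell quiescence, filled most of a run of 11 bins with 197 regions from 133 DN, 118 DP, 149 SP4 and 144 SP8 peaks, and there SP4 was highest. Foxp1 had more dense bins than any other ordinary gene model, with 11 of its 13. Bach2, a repressor that restrains effector T cells, had 7 of 8, with 67 DN, 40 DP, 97 SP4 and 93 SP8 peaks in its body.

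Dense bins were richer in genes than other bins with a region, yet many lacked a gene start. No coding gene overlapped 11.8% of dense bins and 28.1% of the others. Exactly 1 coding gene overlapped 47.4% and 48.7%, and 3 or more overlapped 19.4% and 7.30%. In 42.5% of dense bins there was no coding start, against 62.1%. Promoter regions were 11.6% of dense-bin regions, 12.8% of the others and 12.3% of all regions, lower in dense bins on 15 of 19 chromosomes. With promoters widened to 1000 bp the order turned, to 18.2% and 17.9%. Exons without a promoter held 15.2% and 12.5%, and regions away from both 73.2% and 74.7% (74.1% of all regions).

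Of the 10 fullest bins without a coding gene, the first, chr17:84100001-84150000, held 28 regions (24 DN, 18 DP, 14 SP4 and 16 SP8 peaks) 33930 bp from Zfp36l2. The bin chr11:52300001-52350000, next to the Tcf7 bin and 10859 bp from its nearest coding gene, Vdac1, held 23 regions with 17 DN, 16 DP, 16 SP4 and 22 SP8 peaks, 12 of them called at all 4 stages. A bin 148918 bp from Sox4 held 23 regions and one 78949 bp from Ets2 held 24. The bins nearest to Fndc1 (26 regions), Arl4c, Zfp978 and 2010109I03Rik (25 each) were also among the 10. A neighbouring pair lay in the T cell receptor alpha/delta locus, whose gene segments are not annotated as ordinary coding genes. In chr14:54100001-54150000, with the delta segments Trdd1, Trdd2, Trdj1, Trdj2, Trdc and Trdv5, 25 regions came from 18 DN, 12 DP, 14 SP4 and 9 SP8 peaks, highest in DN. In chr14:54150001-54200000, with alpha joining segments, 25 regions came from 10 DN, 16 DP, 16 SP4 and 18 SP8 peaks, lowest in DN. The pair went in opposite directions from DN to SP8. DP cells rearrange the alpha chain in this locus, and the part of rearranged DNA in these counts was not tested.

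Stages differed strongly in some bins. DN alone had the highest count in 2653 bins (54.9%), and after scaling by each stage's total of peaks in dense bins DN led in 1367, DP in 1239, SP4 in 1009 and SP8 in 1221. The highest stage had at least 2 times the peaks of the lowest in 1391 bins (28.8%). Counts per bin of SP4 and SP8 followed each other most closely (Pearson 0.79, Spearman 0.76 over 4836 bins) and those of DN and SP4 least (0.38 and 0.35). These are descriptions, as bins share libraries and were picked on the sum of the counts.

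DN gave 50% or more of the peaks in 112 dense bins (2.32%), a limit set after the values were seen. Examples from those with the highest DN share follow, picked after their values were seen, while others lay at Pdpn, Col13a1 and the Tcl1b genes, and some overlapped no coding gene. The Hand2 bin, at a heart and limb factor, had 15 DN peaks, 1 DP peak and 0 in SP4 and SP8. The bin at Zic1 and Zic4, factors of the developing brain, had 12 DN peaks and 1 DP peak. Tbx5, another heart and limb factor, had 14 DN, 0 DP, 1 SP4 and 1 SP8 peaks. The bin at Hoxc13 and Hoxc12 had 13 DN and 4 DP peaks and none from SP cells. The Meis1 bin had 12 DN, 2 DP, 2 SP4 and 0 SP8 peaks. Meis1 is a homeobox factor of stem and progenitor cells. None of these 5 bins had a region called at all 4 stages. The 1528 regions of the 112 bins were narrow (median 179 bp against 237 in all dense bins) and low (median percentile 34.2 against 45.8), had more CpG (mean 2.88 within 50 bp on either side of the summit against 2.17) and were called at all 4 stages in 10.2% against 37.3%. The choice of the bins on their DN peaks lowers the last share and raises that of 1-stage regions, 67.4% against 33.8%. Regions of 1 stage had a median width of 137 bp and a median percentile of 17.8 in all dense bins. The choice therefore bears on width and height too. In the Meis2 bin the mean was 8.25 CpG. These bins moved with the length of the DN list. With 104411 peaks from each list only 3 dense bins had 50% or more DN peaks, at Krt80 (12 DN, 4 DP, 3 SP4 and 2 SP8 peaks), Cdk6 (12, 6, 2 and 3) and Aldh1a3 (12, 3, 3 and 3).

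Cdk6, a cell cycle kinase, also had a bin with 22 DN, 9 DP, 10 SP4 and 9 SP8 peaks and 13 DN-only regions, as many as the Tbx5 bin and 1 fewer than the Hand2 bin. The Barx1 bin was second by DN excess with 24 DN, 10 DP, 8 SP4 and 7 SP8 peaks.

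DP had its largest excess at Ssbp2, with 5 DN, 15 DP, 6 SP4 and 6 SP8 peaks and 8 DP-only regions. Jazf1 followed with 10 DN, 18 DP, 12 SP4 and 5 SP8 peaks, and Sdccag8 had 7 DN, 16 DP, 8 SP4 and 7 SP8 peaks. SP4 led at Nudcd3 (12 DN, 10 DP, 20 SP4 and 12 SP8 peaks), Sypl (8, 8, 17 and 9) and Stk17b (9, 7, 20 and 19). The bin with the most SP4-only regions overlapped Dcst1, Dcst2 and Zbtb7b, the last of which encodes ThPOK, which directs cells to the CD4 lineage. It held 16 DN, 12 DP, 20 SP4 and 10 SP8 peaks, with 8 SP4-only and 0 SP8-only regions. Runx3, which directs cells to the CD8 lineage, had 16 DN, 10 DP, 13 SP4 and 21 SP8 peaks in its bin, with 8 SP8-only and 0 SP4-only regions. In stage-only regions these 2 bins mirrored each other, but both were picked on that number. The body of Zbtb7b itself held 8 DN, 6 DP, 9 SP4 and 5 SP8 peaks. SP8 had its largest excess at Peli1, a ubiquitin ligase that limits T cell activation, with 3 DN, 1 DP, 12 SP4 and 17 SP8 peaks. Cd226, an activating receptor of cytotoxic cells, followed with 6 DN, 5 DP, 9 SP4 and 18 SP8 peaks and 10 SP8-only regions.

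SP4 and SP8 together gave 60% or more of the peaks in 192 dense bins (3.97%), a limit that was not planned. These bins were not recounted with lists of equal length. The examples that follow were picked after their values were seen. Others with a high SP share lay at Lrch1, Agfg1 and Asap1, and some overlapped no coding gene. Among the 192 were bins at Peli1 and at Inpp4b, a lipid phosphatase (1 DN, 3 DP, 11 SP4 and 14 SP8 peaks). Further examples lay at Skap1, an adaptor of integrin activation (3, 1, 9 and 9), and at Ptprc (1, 4, 10 and 8). The bin at Il7r, the interleukin 7 receptor, had 3, 3, 11 and 9. The 2938 regions of the 192 bins had a median width of 218 bp and a mean of 1.41 CpG. They were called at all 4 stages in 25.4%, a share that the choice of these bins also lowers. They were away from promoters and exons in 84.5%, against 73.2% of all dense-bin regions. CpG content thus differed in opposite directions between DN-rich and SP-rich bins, as did the share masked as repeats, 3.796% and 7.18%.

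Of all 20780 coding genes 30.3% overlapped a dense bin and 24.1% had their start in one, and the lists of T cell genes lay above these shares. Among 25 T lineage transcription factors all 25 overlapped a dense bin and 22 had their start in one. These were spread over many loci, such as Gata3, whose body held 15 DN, 13 DP, 13 SP4 and 12 SP8 peaks, and Ets1 with 31, 35, 41 and 43. Tox, needed for CD4 lineage development, had 31, 31, 54 and 35, highest in SP4. Myb, a factor of proliferating progenitors, had 17, 11, 9 and 8, most in DN, and Foxo1, a factor of naive T cell homing, had 15, 24, 28 and 34, most in SP8. Of 25 genes of the T cell receptor complex and its signalling 23 overlapped, all but Rasgrp1 and Vav1. The receptor chain Cd247 lay in 3 dense bins with 35 DN, 30 DP, 36 SP4 and 34 SP8 peaks, while Themis, an adaptor of thymocyte selection, had 17, 33, 26 and 29, highest in DP. Of 10 coreceptor and recombination genes 7 overlapped. Cd8a and Cd8b1 had bins of 25 and 24 regions, Cd4 one of 18 and the recombinase genes Rag1 and Rag2 one of 19. Ptcra, the pre-T cell receptor alpha chain, Xrcc4 and Lig4 lay outside.

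Cytokine and homing receptors overlapped in 19 of 20 cases, with Cxcr4, a chemokine receptor of early thymocytes, as the exception. Notch pathway genes did so in 9 of 10, without Rbpj, the DNA-binding partner of Notch. Activation response factors did so in 18 of 20, without Rel and Relb, and survival and costimulation genes in 15 of 19. Early progenitor genes overlapped in 7 of 10. DN, the longest list, had the most peaks in the bodies of 7 of the 10. Among these the Meis1 body held 13 DN, 1 DP, 2 SP4 and 1 SP8 peaks, Bcl11a 14, 4, 6 and 4, and Spi1, the gene of PU.1, 12, 6, 4 and 4. DN was level with SP4 at Flt3 (16, 12, 16 and 14) and with SP8 at Hoxa9 (3, 2, 1 and 3), and lowest at Lyl1 (3, 4, 5 and 4). DN alone also had the most peaks in 7 of 10 Notch pathway, 6 of 10 neuronal and 5 of 10 myeloid genes. It did so in 6 of 25 T lineage factors and 4 of 25 genes of the T cell receptor complex and its signalling. A DN lead was thus not particular to the progenitor list. Lists of other cells had lower shares than the T cell and progenitor lists, with natural killer genes at 6 of 10, erythroid genes at 5 of 9, myeloid genes at 4 of 10, neuronal genes at 4 of 10, B cell genes at 3 of 10 and hepatocyte genes at 0 of 10. The natural killer (60%), erythroid (55.6%), myeloid (40%) and neuronal (40%) lists nevertheless also lay above the 30.3% of all coding genes. Overlap is not activity. Elane, a neutrophil protease, overlapped a bin of 24 regions with 0 peaks of any stage in its own body. Gene length differed between lists, and the lists were not compared with genes of like length. Over all coding genes the share that overlapped ran from 27.2% for genes under 10 kb to 34.2% for those of 100 kb or more, while the share with the start in a dense bin ran from 26.1% down to 16.0%. By start, the T lineage factors (22 of 25) and receptor genes (21 of 25) stood against 24.1% of all coding genes.

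**Figure D5:**
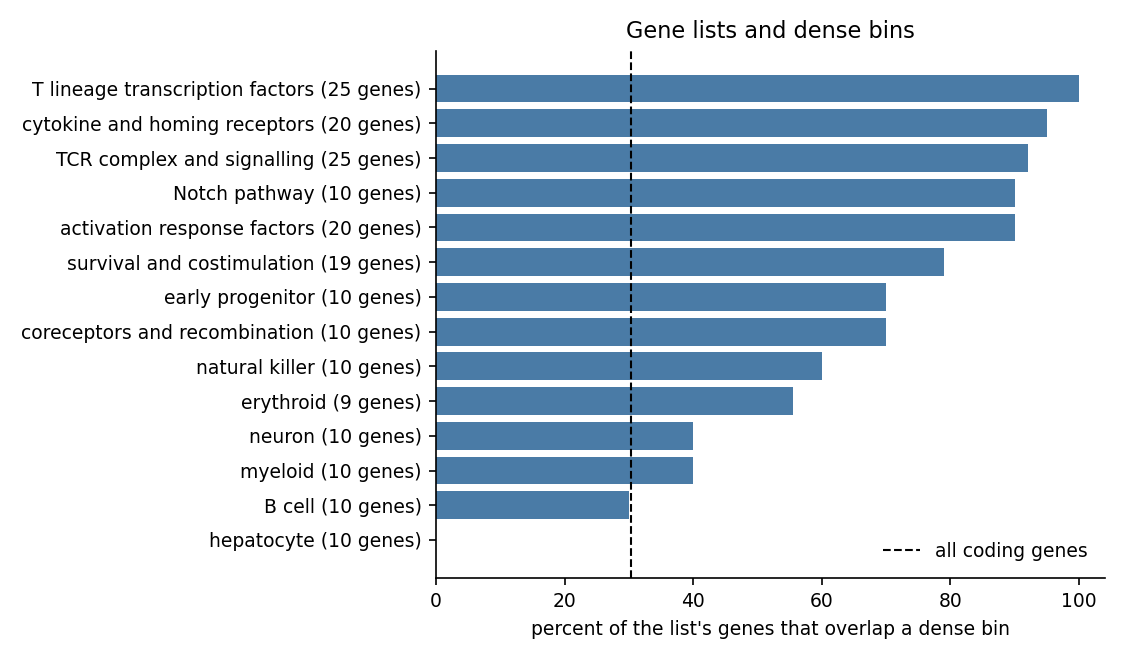
Percent of the genes of each list that overlap a dense bin (x), by list (y), with the number of genes in brackets. The dashed line is the 30.3% of all coding genes, and the bars run from 100% for T lineage transcription factors to 0% for hepatocyte genes.

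Motif letters within 50 bp on either side of the summit differed little between dense and other bins. The CTCF match, a factor that bounds chromatin loops, was rarer in dense bins, with 1.01% of regions (interval 0.942% to 1.09%) against 1.68% (1.61% to 1.76%), lower on 19 of 19 chromosomes. It was rarer both among regions called at all 4 stages (1.87% against 2.89%) and among regions of 1 stage (0.320% against 0.813%). The E-box was commoner, with 12.4% against 11.4%, and among regions called at all 4 stages with 12.03% against 10.4%, higher on 18 of 19 chromosomes. Among regions of 1 stage it stood at 12.5% against 12.1%, higher on 11 of 19. RUNX letters were in 15.04% against 16.5% of regions and ETS letters in 22.3% against 23.6%. In regions called at all 4 stages the order turned for ETS, to 24.6% against 23.4%, higher on 16 of 19 chromosomes. RUNX letters stood there at 14.6% against 14.2%, with overlapping intervals, and were higher in dense bins on 12 of 19. A direction common to the classes was thus not seen for either. TCF7/LEF1 letters were lower in dense bins, with 7.16% against 8.02%, and with 7.17% against 8.04% among regions of 1 stage. Among regions called at all 4 stages they stood at 6.68% against 6.95%, with overlapping intervals, and were higher in dense bins on 8 of 19 chromosomes. GATA stood at 3.12% against 3.59%, but at 2.83% against 2.82% among regions called at all 4 stages. KLF/SP stood at 5.48% against 5.10%, but at 8.39% against 9.01% among regions called at all 4 stages. AP-1 stood at 3.18% against 2.98%, but at 2.95% against 3.06% among regions of 1 stage. IKZF letters stood at 6.73% against 6.76%, with 6.06% against 6.26% at all 4 stages and 7.91% against 7.62% at 1 stage. Regions with 50% or more of the window masked as repeats made up 6.33% in dense bins and 7.78% elsewhere, lower on every chromosome. Among SP8-only regions they were 10.4% and 15.9%.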

How the data were processed

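ATAC-seq was done on 16 libraries, 4 mice at each of 4 stages. Per the study's methods, the authors aligned reads to mm10, evened out depth between libraries, pooled the mice of a stage, called narrow peaks with MACS2 at a 5% false discovery rate and removed blacklisted regions. Tool versions are not given in the sources used here. Each deposited list has 1 line per peak with its fold enrichment, its q-value as -log10 and the offset of its summit in bp. The lists give no reads per peak, so the depth behind a single peak is unknown. Peaks sharing 1 bp were merged, binned by midpoint in 50 kb and annotated with GENCODE M21 and RefSeq. Promoters were 200 bp upstream of 183083 distinct starts. Heights were ranked within each list. Shares carry 95% Wilson intervals (scipy 1.17.1, pandas 2.3.3). Named were genes at the 20 densest bins, listed genes, genes at the longest runs and 3 bins per stage by excess. Members and lists were chosen with earlier results of these data known. Interval code was tested on simulated data. The pooled lists hold no replicates, so no test was made. Erythroid Ahsp was not matched. Some genes that the naming rule covers are not reported here.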

Additional observations from a re-analysis of the deposited data

How the results depend on the processing

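Of 103 recomputed values under 13 alternatives, 67 stayed within 1.5 times the reported count or within the 95% interval of the reported share. The direction of the difference between dense and other bins in calls at all 4 stages and at DN only was the same under each of the 10 that can move calls or bins, and that of the promoter share under each alternative that can move it but promoters of 1000 bp. A minimum of 10 regions gave 7172 bins, 98416 regions and 17.5% DN-only regions. A minimum of 15 gave 2385 bins, 42377 regions, 15.3% DN-only and 10.9% promoter regions, with 33068 DN, 27310 DP, 27495 SP4 and 26759 SP8 peaks. Bins of 100 kb with 24 regions gave 2002 bins, 38.1% of regions at all 4 stages and 15.9% at DN only. Equal lists gave 48489 regions, 38.9% at all 4 stages, 6.62% at DN only, 12.2% at promoters and 30730 DN peaks. A q-value of at most 0.001 gave 37.7% at all 4 stages. Merging only where 50% of the narrower peak was shared gave 36.6% at all 4 stages and 17.1% at DN only. Promoters of 1000 bp held 18.2% of regions, and those of protein-coding transcripts 8.18%. Both remaining alternatives were chosen after seeing the data. Joining peaks within 500 bp gave 1742 bins, 23598 regions, 44.1% at all 4 stages, 13.3% at DN only, 11.1% at promoters, 24053 DN, 19980 DP, 20099 SP4 and 19541 SP8 peaks, and 92 of the listed genes in place of 143. Leaving out peaks under the 10th percentile gave 36.4% at all 4 stages, 16.2% at DN only, 11.1% at promoters and 38703 DN peaks. The cause of these shifts was not tested.

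No paired analysis was possible because the deposited lists pool the 4 mice of each stage, although the labels name the same mice at every stage. For the same reason no mouse could be left out. The spread between animals is unknown, and a stage difference cannot be told apart from a difference between 4 pooled libraries. The authors evened out depth between libraries, and the lists still differed in length. The lists hold no region below the caller's limit, so an absent peak is not closed DNA. Bin edges are arbitrary, and a shift by 25 kb gave 4853 dense bins.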
